A study of Mus musculus with 28 samples.

Results

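The epithelial antimicrobial peptides and proteins followed here were 9 genes of the 29068 in the deposited table, a list of gene names drawn up with earlier results of these data known: the beta-defensins Defb1, Defb3, Defb4, Defb6 and Defb14, the siderophore-binding lipocalin Lcn2, the secretory leukocyte protease inhibitor Slpi, the C-type lectin Reg3g and the peptidoglycan recognition protein Pglyrp1. Their transcripts were counted in 28 RNA-seq libraries of mouse skin, 4 each at days 0, 3, 5, 7, 10, 12 and 14 of natural wound healing. The labels give the genotype of every sample as C57BL/6J, and the study's methods describe 8-week-old MLKL+/+ mice of both sexes that carried a punch wound of 6 mm through the skin of the back. The whole wound site was collected, with its scab and epithelial margins, so that every library of a wound day is a mixture of epidermis, dermis, infiltrating leukocytes and deeper tissue. The day 0 libraries are of mixed tissue as well. The labels treat day 0 as the control, while the study's methods give the earliest sampling as day 1 and count the day of injury as day 1. Day 0 is the name used here. Nothing in the labels ties a library to a separate animal, and p-values therefore measure the spread between these libraries.

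Skin defends its surface with small secreted proteins. Beta-defensins are cationic peptides folded around disulphide bridges that damage microbial membranes, and some of them also attract immune cells. Some are made by resting keratinocytes, others mostly after contact with microbes or with cytokines such as IL-1, IL-17, IL-22 and TNF. Lcn2 starves bacteria of iron by binding their siderophores, Slpi inhibits neutrophil elastase and cathepsin G besides its antimicrobial activity, Reg3g binds peptidoglycan of Gram-positive bacteria, and Pglyrp1 binds peptidoglycan and is stored in neutrophil granules. Lcn2 and Slpi are made by neutrophils and macrophages as well as by keratinocytes. In whole tissue, fewer cells of a type and less RNA per cell cannot be told apart.

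The 5 beta-defensins lie on chromosome 8 in build GRCm38 (the assembly also called mm10) and on the plus strand, by the GENCODE M21 annotation. Defb14 (chr8:19194357-19195212), Defb4 (chr8:19198706-19201545), Defb6 (chr8:19225478-19228209) and Defb3 (chr8:19293360-19295291) are neighbours, and Defb1 (chr8:21776599-21795185) lies farther along the chromosome. Their coding sequences are shown because these paralogs went opposite ways in the wound, and because paralogs can share reads. Capitals mark in-frame cysteine codons. Beta-defensins form their disulphide bridges between cysteines, but Defb1 has an odd number of such codons, 7, the first of them at codon 12, so not every capital marks a bridged residue.
Defb1: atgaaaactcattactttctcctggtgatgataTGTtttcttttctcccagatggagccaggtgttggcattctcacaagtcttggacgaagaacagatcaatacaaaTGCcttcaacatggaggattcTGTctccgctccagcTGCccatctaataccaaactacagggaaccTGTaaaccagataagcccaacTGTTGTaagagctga
Defb3: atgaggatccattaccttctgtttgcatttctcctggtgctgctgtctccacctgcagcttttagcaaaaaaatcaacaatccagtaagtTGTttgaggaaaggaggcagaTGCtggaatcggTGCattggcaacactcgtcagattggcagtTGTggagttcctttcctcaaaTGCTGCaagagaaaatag
Defb4: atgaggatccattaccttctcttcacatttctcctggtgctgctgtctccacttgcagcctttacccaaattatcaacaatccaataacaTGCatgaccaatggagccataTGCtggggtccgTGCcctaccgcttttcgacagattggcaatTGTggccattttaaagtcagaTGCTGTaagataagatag
Defb6: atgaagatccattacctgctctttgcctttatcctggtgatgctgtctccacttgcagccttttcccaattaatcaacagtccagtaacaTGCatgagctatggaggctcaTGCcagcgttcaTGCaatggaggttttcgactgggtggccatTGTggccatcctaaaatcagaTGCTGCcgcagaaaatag
Defb14: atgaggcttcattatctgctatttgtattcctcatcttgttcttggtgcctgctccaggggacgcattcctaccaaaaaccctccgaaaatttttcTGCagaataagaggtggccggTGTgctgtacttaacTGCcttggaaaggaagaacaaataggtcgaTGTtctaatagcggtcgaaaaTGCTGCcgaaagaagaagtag
Defb3, Defb4 and Defb6 each had 63 codons before the stop and 6 cysteine codons at the same first and last place, codons 31 and 60. The coding sequences of Defb4 and Defb6 were identical at 78.6% of aligned positions, those of Defb3 and Defb4 at 76% and those of Defb3 and Defb6 at 71.9%. No other pair of the 5 was above 57.8%. The longest stretch shared without a difference between transcripts was 33 bases (Defb3 and Defb4), followed by 26 bases (Defb4 and Defb6). Next came 12 bases, for Defb3 and Defb6 and for Defb1 with Defb3 and with Defb4. The counting tool is not given in the sources used here, so the low counts of Defb4 in particular are uncertain.

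RefSeq (GRCm38.p6) gave the 250 bases upstream for 6 of the 9 genes, namely Defb3, Defb6, Lcn2, Slpi, Reg3g and Pglyrp1. Defb3, which rose, and Defb6, which fell, are shown because they were the only defensins among these 6. Capitals in the next lines mark bases that differ, or face a gap, in the alignment of Defb3 (chr8:19293111-19293360, plus strand) with Defb6 (chr8:19225228-19225477, plus strand).
Defb3 upstream: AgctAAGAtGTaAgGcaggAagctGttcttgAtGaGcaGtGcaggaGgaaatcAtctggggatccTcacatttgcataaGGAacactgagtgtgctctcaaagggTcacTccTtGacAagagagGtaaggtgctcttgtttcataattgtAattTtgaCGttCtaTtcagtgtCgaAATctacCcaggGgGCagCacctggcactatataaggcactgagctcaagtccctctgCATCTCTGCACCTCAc
Defb6 upstream: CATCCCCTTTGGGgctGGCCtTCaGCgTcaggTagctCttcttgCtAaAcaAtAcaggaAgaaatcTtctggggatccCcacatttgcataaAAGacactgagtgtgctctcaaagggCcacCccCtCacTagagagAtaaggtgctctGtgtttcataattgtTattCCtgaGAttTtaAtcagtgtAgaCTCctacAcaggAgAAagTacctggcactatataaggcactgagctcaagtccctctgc
Identical bases made up 72.5% of the 265 aligned positions, and the longest stretch held letter for letter by both, wherever it stands in the alignment, was 40 bases. Among the other pairs of these 6 upstream sequences, the highest identity was 50.3%. The TATA box TATATAA, which 3.04% of 32851 RefSeq promoters hold on either strand, stood in both, at bases -46 to -40 of Defb3 and -31 to -25 of Defb6. The consensus binding site of NF-kB, held by 3.9% of all promoters, was found in Defb6 as GGGGATCCCC (-180 to -171), in Pglyrp1 as GGAAAGTCCC (-93 to -84) and in Reg3g as GGGAAACCCC (-123 to -114). It was not found in the windows of Defb3, Lcn2 or Slpi. The AP-1 site TGANTCA, held by 6.75% of promoters, was found in none of the 6. A match describes letters only, and these did not sort the genes that rose from the gene that fell.

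Library totals lay between 36706513 and 40655764 counts, and all 9 genes were among the 18107 that passed the filter on low counts. Changes are log2 fold changes (log2FC) with standard errors from edgeR's quasi-likelihood test, 1 fit of all 28 libraries, and a gene is called changed at a Benjamini-Hochberg adjusted p under 0.05. Levels are counts, CPM (counts scaled to a common library size after TMM) or, where genes are compared with each other, the authors' FPKM, which also divides by gene length. The 4 day 0 libraries fell into pairs. Replicates 1 and 4 differed from replicates 2 and 3 by over 2-fold in 2281 to 2501 genes, against 953 genes between replicates 2 and 3, 1437 between 1 and 4, and 738 to 1123 between libraries of any wound day. The day 0 biological coefficient of variation was 26.4%, and those of the wound days were 5.7% to 10.8%. Basal keratinocyte markers summed to 5821 and 6648 CPM in replicates 1 and 4 and to 2912 and 3005 CPM in replicates 2 and 3, while skeletal muscle markers summed to 24180, 25370, 15000 and 15310 CPM in the same order. All comparisons with day 0 share these libraries, so calls that changed with only 1 of these pairs as day 0 are named beside the result.

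Day 3, the earliest wound day sampled, gave the highest mean level of most of these genes. No library was taken between days 0 and 3, so an earlier height would not be seen. Relative to day 0, 7 of the 9 rose, Defb6 fell and Defb1 was not called, against 31.8% of all genes tested that rose and 34.8% that fell. In 7 genes the libraries of day 3 lay wholly above those of day 0, and in 1 wholly below, against 28.2% and 28.6% of all genes. The median log2FC of the 9 was 5.01 (4.54 with Reg3g, which had no count on day 0, at its lower bound), beside -0.03 over all genes tested. Under the limits of the study's methods (log2FC over 1.5 in either direction and unadjusted P under 0.05), 7 rose and 1 fell, against 6.5% and 12.4% of all genes. The plot of each gene by library shows these patterns.

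**Figure D1:**
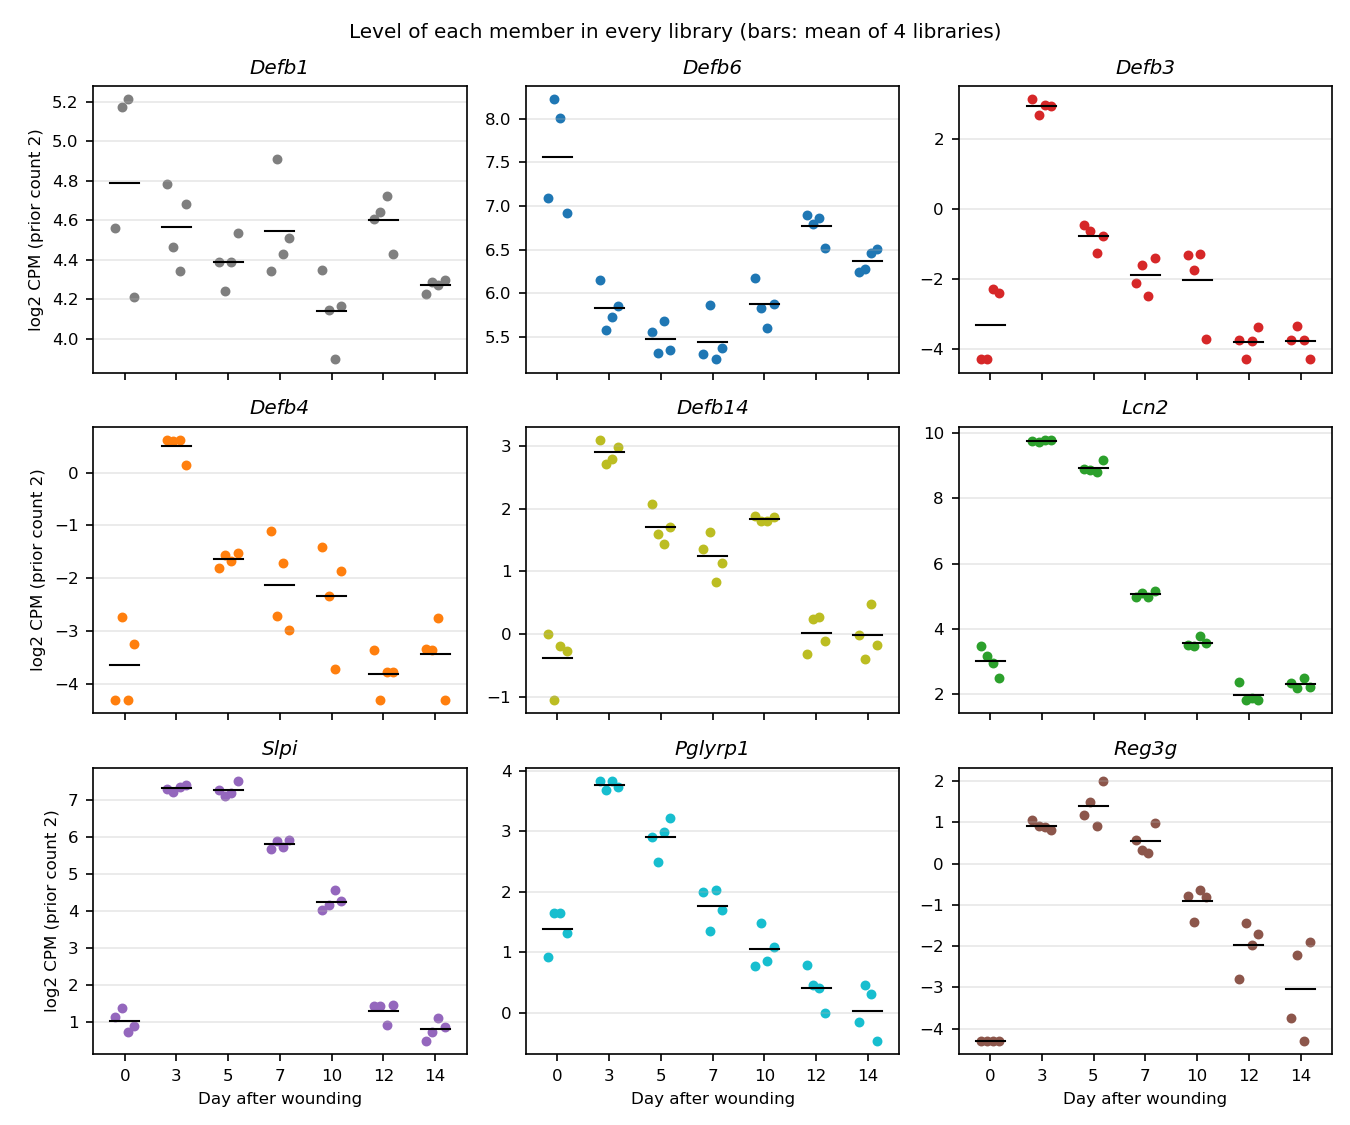
Log2 CPM (prior count 2, y axis, a separate scale for each gene) of the 9 genes in the 28 libraries, by day (x axis). Each point is 1 library and each bar the mean of 4. The day 3 points of Lcn2, Slpi, Pglyrp1, Reg3g, Defb3, Defb4 and Defb14 lie above all of their day 0 points, those of Defb6 lie below, and those of Defb1 overlap.

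Lcn2 was the most abundant of the induced genes. It was counted 418, 354, 296 and 203 times in the day 0 libraries and 31937, 31427, 32509 and 32123 times on day 3. On day 5 the counts were 18476, 17817, 17128 and 21354. Every library of days 3 and 5 was thus far above all of day 0, and day 5 lay wholly below day 3. The day 7 counts were 1232, 1349, 1240 and 1430, those of day 10 were 448, 447, 538 and 482, and those of days 12 and 14 lay between 151 and 228. Lcn2 thereby ended below its starting level, as all libraries of days 12 and 14 were below those of day 0 by CPM.

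The log2FC of Lcn2 was 6.71 (SE 0.16, adjusted p = 7.9e-23) on day 3, a 105-fold increase, and 5.89 (SE 0.15) on day 5. It was 2.01 (SE 0.13) on day 7 and 0.53 (SE 0.13, adjusted p = 0.00171) on day 10. On days 12 and 14 it was -1.08 (SE 0.14) and -0.75 (SE 0.14). In FPKM, Lcn2 stood at 961 ± 12.4 (SD, n = 4) on day 3, ranking 60 of all 29068 genes, and at 9.53 ± 2.54 on day 0, ranking 5595. Between days 5 and 7 alone it fell 14.8-fold (log2FC -3.88, SE 0.13, adjusted p = 1.33e-17).

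Slpi rose to a plateau that spanned days 3 and 5 and was still 27.7-fold above day 0 on day 7. The day 0 counts of 81, 102, 62 and 65 became 5879, 5548, 6021 and 6118 (day 3) and 5968, 5263, 5562 and 6835 (day 5). Days 3 and 5 overlapped, and their difference was -0.04 on the log2 scale (SE 0.11, adjusted p = 0.838). Day 7 gave counts of 1986, 2343, 2097 and 2418, and day 10 gave 650, 726, 928 and 774. The last counts, 113, 118, 81 and 117 (day 12) and 56, 68, 86 and 75 (day 14), overlapped day 0. The log2FC against day 0 was 6.30 (SE 0.15, adjusted p = 1.08e-22) at day 3 and 6.26 at day 5, and later 4.79 (day 7) and 3.24 (day 10). Its steepest fall came between days 10 and 12, 7.83-fold (log2FC -2.97, SE 0.14, adjusted p = 3.32e-15).

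The ratio of Lcn2 to Slpi within a library removes differences in library size. Its log2 value was 2.39 to 2.50 in the day 3 libraries, 1.62 to 1.76 in those of day 5 and -0.80 to -0.69 in those of day 7, so that the order of their CPM turned over between days 5 and 7. Day 10 gave -0.78 to -0.53, day 12 gave 0.36 to 0.96 and day 14 gave 1.34 to 1.87. The change from day 5 to day 7 was -2.41 (exact two-sided permutation test over the libraries, p = 0.0286, the smallest that 4 against 4 can give). With 42 such tests, of 7 pairs of genes over 6 successive steps, the adjusted p was 0.0571, above 0.05, although the libraries of the days did not overlap. The pairs were picked after their values were seen, so these p-values only describe the lack of overlap and are no independent support. Over the same step, the log2 ratio of Lcn2 to Pglyrp1 went from 5.84 to 6.39 on day 5 to 2.96 to 3.76 on day 7, again with no overlap (change -2.75, same p).

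Pglyrp1 followed a lower and shorter course. It was counted 70, 122, 119 and 88 times on day 0 and 527, 467, 520 and 476 times on day 3. Day 5 gave 285, 211, 297 and 343, and day 7 gave 152, 98, 158 and 126. The rise was 5.18-fold on day 3 (log2FC 2.37, SE 0.2, adjusted p = 5.27e-11) and 2.87-fold on day 5 (1.52, SE 0.2, adjusted p = 2.67e-07). Day 7 (0.38, adjusted p = 0.127) and day 10 (-0.35, adjusted p = 0.183) did not pass. With only replicates 1 and 4 as day 0 the day 7 value was 0.67 (adjusted p = 0.0262), and with only replicates 2 and 3 it was 0.15 (0.618). At day 10 the same fits gave -0.056 (adjusted p = 0.879) and -0.58 (0.0359). On days 12 and 14 the counts of 28 to 71 were all below day 0 by CPM, with log2FC of -1.01 (SE 0.22) and -1.38 (SE 0.23).

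Reg3g was listed at 0 in all 4 day 0 libraries. It was counted 75, 67, 66 and 62 times at day 3, then 84, 105, 70 and 147 times (day 5) and 56, 47, 45 and 76 times (day 7). Day 10 gave 21, 13, 23 and 21, day 12 gave 4, 14, 9 and 11, and day 14 gave 1, 7, 0 and 9. Every library of days 3 to 12 therefore held the transcript, and 1 library of day 14 did not. A count of 0 allows up to 3 counts in a library, and against this floor Reg3g was at least 23.3-fold higher at day 3 and at least 34.1-fold higher at day 5. The bounds at days 7, 10, 12 and 14 were 18.1-fold, 6.2-fold, 2.75-fold and 1.28-fold. Reg3g was the only one of the 9 with its highest mean on day 5 (2.69 CPM, against 1.84 on day 3), but these days did not differ beyond their spread (log2FC 0.55, SE 0.34, adjusted p = 0.261).

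**Figure D2:**
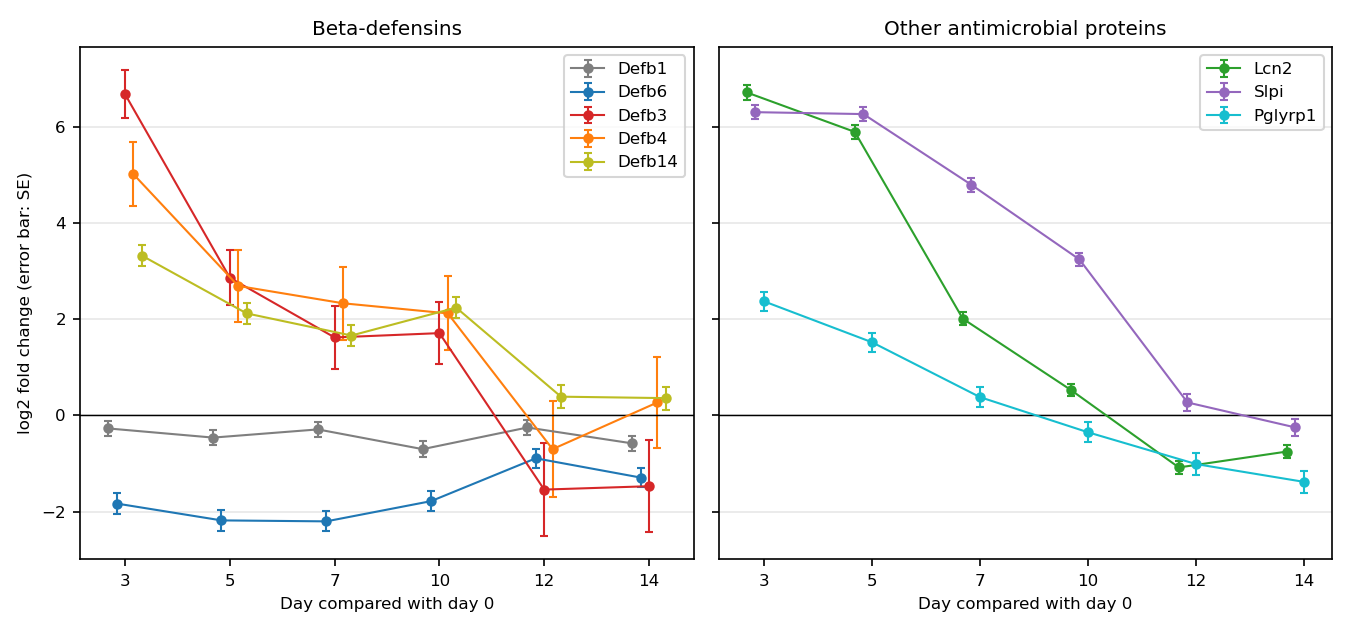
Log2 fold change against day 0 (y axis) for each wound day (x axis), with the standard error of the edgeR fit as bars. The beta-defensins are on the left and Lcn2, Slpi and Pglyrp1 on the right; Reg3g is left out because its day 0 counts are all 0. Lcn2 stands at 6.71 and 2.01 on days 3 and 7 where Slpi stands at 6.30 and 4.79, and Defb6 stays under 0 throughout.

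Among the beta-defensins, Defb3, Defb4 and Defb14 rose, Defb6 fell, and Defb1 moved little. Defb3, an inducible defensin of skin and airway epithelium, gave the sharpest peak among the days sampled. The day 0 counts of 0, 0, 6 and 5 became 329, 235, 288 and 282 at day 3 and 26, 23, 14 and 20 at day 5. They were 7, 11, 5 and 13 on day 7 and 14, 10, 14 and 1 on day 10, and no library of days 12 and 14 held more than 2. The day 3 libraries stood apart from all others, with the lowest of them, 235 counts, above the 26 counts of the highest library of any other day.

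Defb3 rose 102-fold on day 3 (log2FC 6.67, SE 0.5, adjusted p = 3.47e-12). With so few day 0 counts the size is loose, and without day 0 replicate 3 it was 7.35. Defb3 then fell 14-fold by day 5 (log2FC -3.81, SE 0.39, adjusted p = 2.55e-08). Its rises on days 7 and 10 were 1.62 (SE 0.65, adjusted p = 0.0379) and 1.71 (SE 0.64, adjusted p = 0.0268). Both overlapped day 0 and both lost the call with either pair of day 0 libraries alone, with adjusted p of 0.0558 to 0.0879. Days 12 and 14 were not called.

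Defb4 was also highest on day 3 among the days sampled, at a lower count. It was counted 0, 4, 0 and 2 times (day 0), then 55, 54, 54 and 38 times (day 3) and 9, 11, 10 and 11 times (day 5), with no overlap of either day with day 0. Later counts lay between 1 and 16 on days 7 and 10 and between 0 and 4 on days 12 and 14. The log2FC was 5.01 (SE 0.66, adjusted p = 1.52e-07) on day 3 and 2.69 (SE 0.74, adjusted p = 0.00256) on day 5, and without day 0 replicate 2 these were 6.03 and 3.70. From day 3 to day 5 Defb4 fell 5-fold (log2FC -2.32, SE 0.5, adjusted p = 0.00102). Over that step the log2 ratio of Defb3 to Defb4 within a library went from 2.08-2.83 to 0.42-1.35, with no overlap (change -1.59, exact permutation p = 0.0286, adjusted p = 0.0571). This pair too was picked after its values were seen. The calls on day 7 (2.33, adjusted p = 0.0117) and day 10 (2.12, adjusted p = 0.0233) rested on few counts and were lost with only replicates 2 and 3 as day 0 (adjusted p of 0.0733 and 0.114), but not with only replicates 1 and 4 (0.0228 and 0.04).

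Defb14, the mouse counterpart of human DEFB103, rose by a smaller fold than Defb3 and was above day 0 in every library up to day 10. Counts of 36, 17, 32 and 28 (day 0) were followed by 317, 240, 254 and 286 (day 3) and by 159, 114, 101 and 119 (day 5). Day 7 gave 98, 119, 68 and 85 and day 10 gave 145, 139, 135 and 146. The counts of days 12 and 14, 30 to 55, overlapped day 0 by CPM.

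The log2FC of Defb14 was 3.32 (SE 0.22, adjusted p = 2.51e-13) at day 3. It was 2.12 (day 5), 1.66 (day 7) and 2.24 (day 10, SE 0.22) later. Defb14 was the only member to rise between days 7 and 10 (log2FC 0.58, SE 0.2, adjusted p = 0.0243), with no overlap between those libraries. It then fell 3.61-fold by day 12. The log2 ratio of Defb3 to Defb14 within a library was -0.03 to 0.18 on day 3 and -2.69 to -2.22 on day 5 (change -2.52, exact permutation p = 0.0286, adjusted p = 0.0571). Defb3 and Defb14 were likewise picked as a pair after their values were seen.

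**Figure D3:**
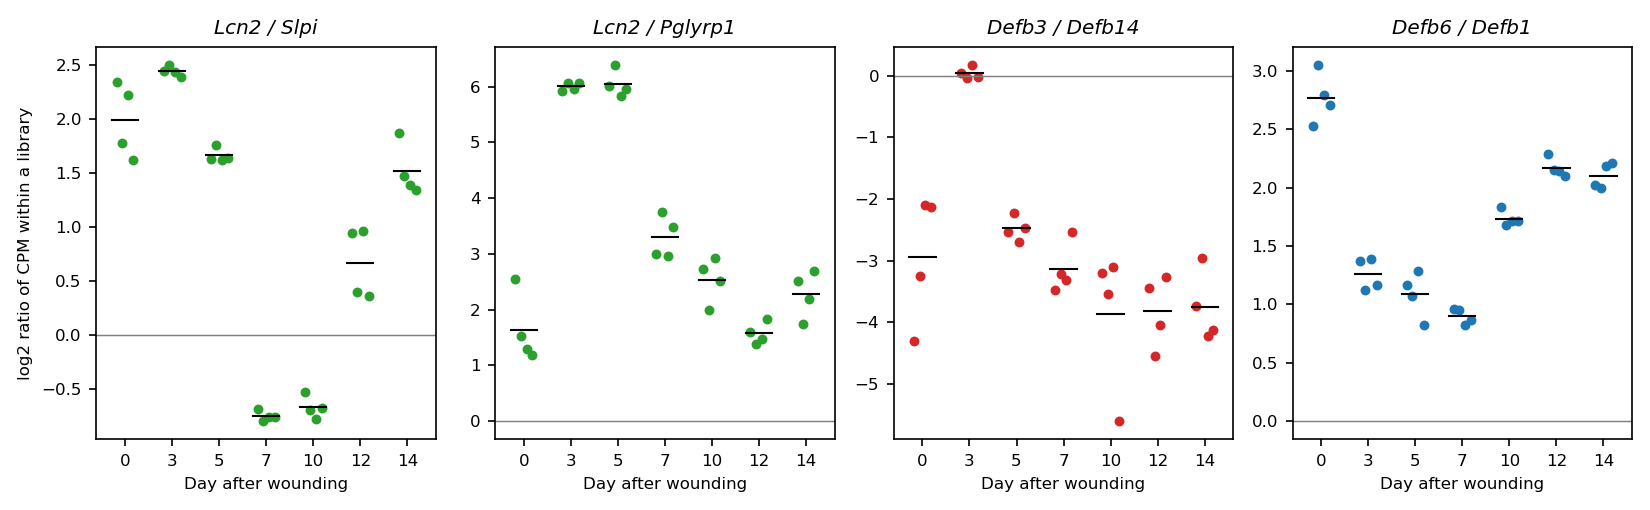
Log2 ratio of CPM of 2 genes within each library (y axis) by day (x axis). Points are libraries and bars means of 4; the line marks equal CPM. Lcn2 to Slpi crosses the line between days 5 (1.62 to 1.76) and 7 (-0.80 to -0.69), Defb3 nears Defb14 on day 3 only, and Defb6 to Defb1 is lowest on days 3 to 7.

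Defb6, known for expression in skeletal muscle and in lining epithelia, had the highest FPKM of the 9 at day 0 and was the only one called lower on every wound day. Counts of 5143, 11842, 9896 and 4356 (day 0) dropped to 2627, 1759, 1939 and 2087 (day 3) and to 1800, 1516, 1945 and 1510 (day 5). The next were 1531, 2268, 1483 and 1640 (day 7) and 2874, 2293, 1898 and 2367 (day 10). Recovery was partial, with 5065, 4901, 5136 and 3986 on day 12 and 3135, 3284, 3576 and 3807 on day 14. By CPM, every wound library was below every day 0 library.

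The log2FC of Defb6 was -1.83 (SE 0.21, adjusted p = 1.03e-08) at day 3 and reached -2.20 (SE 0.21, adjusted p = 8.76e-10), a 4.6-fold fall, at day 7. Days 5 and 10 gave -2.18 and -1.78, day 12 gave -0.89 (SE 0.2, adjusted p = 0.00058) and day 14 gave -1.29 (SE 0.2). The size depended on the day 0 pair: on day 3 it was -2.28 with replicates 2 and 3 alone and -1.12 with replicates 1 and 4 alone, both called. On day 12 the values were -1.34 (adjusted p = 1.26e-09) and -0.21, and the second was not called (adjusted p = 0.269). The rise from day 10 to day 12 does not use day 0 and was 1.85-fold (log2FC 0.89, SE 0.2, adjusted p = 0.000792), with no overlap.

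The suprabasal keratinocyte markers Krt1, Krt10, Lor, Ivl, Dsg1a and Flg, all 6 lower on day 3 (against 34.8% of all genes), summed to 2990-3360 CPM (day 0), 860-1200 (day 3), 1910-2210 (day 5), 2820-3320 (day 7), 1830-2180 (day 10), 3020-3380 (day 12) and 1160-1560 (day 14). The day 7 sums overlapped day 0, with Krt1 and Flg called higher than day 0 and Krt10, Lor and Dsg1a lower. Defb6 itself was at 44.7 CPM on day 5 and 44.2 CPM on day 7, which did not differ beyond their spread (adjusted p = 0.963). Krt10 (-2.06) and Lor (-1.94) changed most on day 3 and Flg (-0.52) and Krt1 (-0.91) least. The 4 skeletal muscle markers, Myh4 (-2.72 on day 3), Tnnt3 (-2.46), Ckm (-2.38) and Acta1 (-1.97), were lower on every wound day (against 24.8% to 34.8% of all genes), at 15000-25400 CPM on day 0 and 3350-8350 CPM from day 3 on. Within day 0, Defb6 was lower in replicates 1 and 4, where the muscle sums were higher. The basal keratinocyte sums given above were also higher in those replicates, and the suprabasal sums were 2990-3360 CPM. The part of muscle and of keratinocytes in the fall of Defb6 was not tested.

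Defb1, the constitutively made beta-defensin of many epithelia, moved least in that its largest log2FC against day 0 (-0.70, on day 10) was smaller in size than the largest of any other member. It was counted 890, 1427, 1429 and 663 times at day 0, 1018, 810, 740 and 928 times at day 3, 800, 719, 792 and 854 times at day 5, and between 580 and 1171 times afterwards. Its wound libraries overlapped day 0 on every day. The log2FC was -0.27 (SE 0.16, adjusted p = 0.124) on day 3 and between -0.25 and -0.70 on the other days, of which days 5, 10 and 14 were called. All of these calls were lost with replicates 1 and 4 alone as day 0, when the values ran from -0.25 to 0.23 (adjusted p of 0.145 or more). With replicates 2 and 3 alone, Defb1 was lower on all 6 days (-0.59 to -1.05, adjusted p of 0.000124 or less). On days 10 and 14 the log2FC was negative with either pair, so there only the call rests on which day 0 libraries are used. On the other days the direction of Defb1 against day 0 rests on them as well. Among the wound days it differed modestly (edgeR F = 2.84 over 6 days, adjusted p = 0.0414).

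Compared per length, the day 0 libraries held mostly Defb6 among these transcripts. On day 0 the FPKM of Defb6 was 615 ± 268 (SD, n = 4), that of Defb1 30.7 ± 9.93, that of Lcn2 9.53 ± 2.54 and that of Pglyrp1 3.76 ± 0.865. Slpi stood at 1.73 ± 0.357, and Defb14, Defb3 and Defb4 at 0.418, 0.224 and 0.0837. No 2 neighbours in this order overlapped between libraries down to Slpi and Defb14, whereas Defb14 and Defb3, and Defb3 and Defb4, did. The length behind the FPKM of Defb14 is 1745 bases, against 204 in the GENCODE M21 transcript, so its place in the order depends on the annotation.

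On day 3 the order was Lcn2 (961), Defb6 (167 ± 29.9), Slpi (131 ± 5.47), Defb1 (24.5 ± 3.49), Defb3 (22.6 ± 3.08), Pglyrp1 (18.7 ± 1.14), Defb14 (4.03 ± 0.51), Defb4 (2.81 ± 0.458) and Reg3g (2.24 ± 0.183). Defb6 did not overlap Slpi, but Defb1, Defb3 and Pglyrp1 overlapped one after the other, as did Defb4 and Reg3g. At days 0, 3, 7 and 12, Defb6 made up 92.5% ± 1.6, 12.5% ± 1.83, 52.2% ± 3.54 and 90.3% ± 0.376 of the summed FPKM of the 9. Lcn2 made up 1.63% ± 0.814, 72.1% ± 2.03, 15.2% ± 1.57 and 1.23% ± 0.195, and Slpi had its largest share, 19% ± 1.72, on day 7. The sum itself went from 662 ± 279 (day 0) to 1330 ± 45.4 (day 3), 851 ± 70.5 (day 5) and 255 ± 35.4 (day 7).

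**Figure D4:**
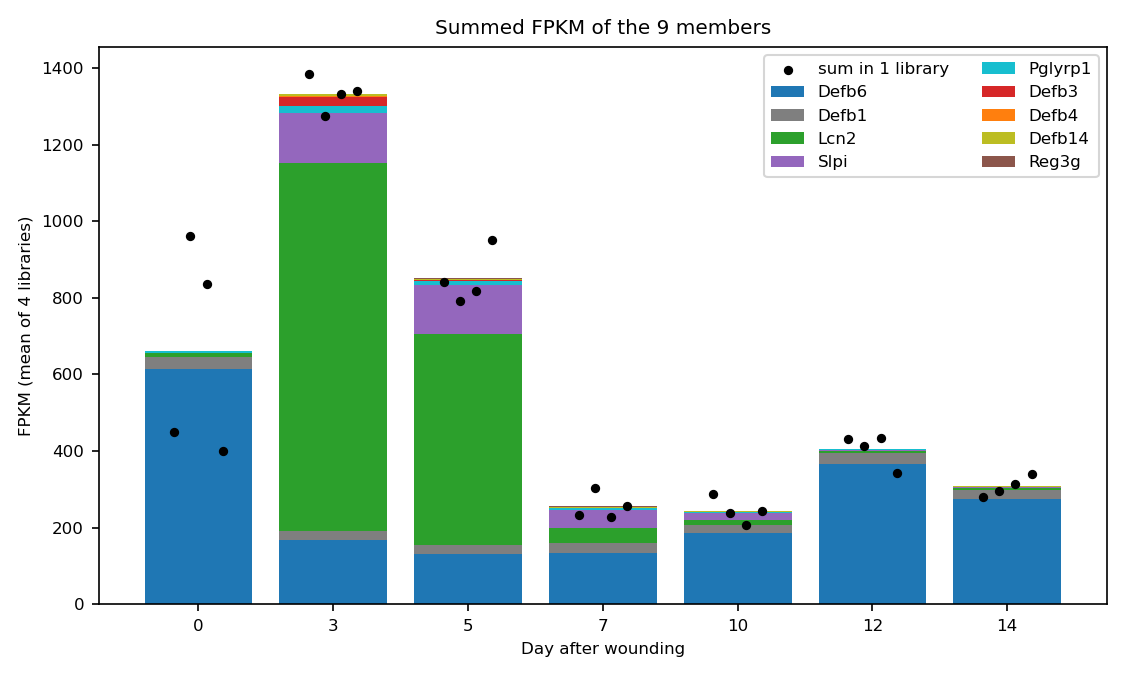
Stacked mean FPKM of the 9 genes (y axis, from 0) by day (x axis), with the sum in each library as black points. As the mean of the shares within each library, Defb6 makes up 92.5% of the sum on day 0 and Lcn2 72.1% on day 3. From day 12 the bar is again nearly all Defb6.

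After day 3 the number of members above day 0 fell in steps. On day 5, 7 were still higher than day 0 and 2 lower, against 29% and 30.6% of all genes tested. Day 7 had 6 higher and 1 lower (25.6% and 24.8%), and day 10 had 6 and 2 (23.5% and 26.9%). By day 12 Reg3g alone was higher and Defb6, Lcn2 and Pglyrp1 were lower (21.7% and 25.6%). On day 14 Reg3g was higher and those 3 and Defb1 were lower (28.2% and 34.5%). The Reg3g libraries of day 14 overlapped those of day 0, however (exact permutation test of log2 CPM, p = 0.143). The median log2FC of the 9 was 2.69, 1.66, 1.71, -0.70 and -0.58 on days 5 to 14, beside medians of -0.06 to 0.00 over all genes. Under the study's limits, 7 were higher and 1 lower on day 5 (5.61% and 8.31% of all genes), 6 and 1 by day 7 (4.66% and 4.74%) and 5 and 1 by day 10 (4.33% and 5.14%). Reg3g alone passed these limits at day 12 (3.89%, with 3.51% lower) and at day 14 (5.15%, with 8.83% lower), from fitted values that rest on day 0 counts of 0. On days 12 and 14 the members' counts in either direction were thus near the background of all genes.

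Tests between successive wound days do not use day 0. From day 3 to day 5, Lcn2, Pglyrp1, Defb3, Defb4 and Defb14 fell (5 of 9, against 11.4% of all genes) and none rose (12.9%). From day 5 to day 7, Lcn2, Slpi, Pglyrp1, Reg3g and Defb3 fell (14.6%), and again none rose (13.9%). From day 7 to day 10, Lcn2, Slpi, Pglyrp1, Reg3g and Defb1 fell (18%) and Defb14 rose (14.3%). From day 10 to day 12, 7 of the 9 fell (20.7%), and Defb1 and Defb6 rose (18.7%). From day 12 to day 14, Slpi fell (log2FC -0.52, SE 0.17, adjusted p = 0.0134), the one call of that step, which 25.3% of all genes passed in that direction and 19.9% in the other. Over the 6 wound days together, all 9 genes differed between days, as did 85.1% of all genes tested.

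The cytokines known to induce these genes in keratinocytes were nearly all higher early in the wound. Of 13 listed, 12 were tested and all 12 were higher at day 3 (median log2FC 2.81), against 31.8% of all genes. On day 5, 8 were higher and none lower (29% and 30.6% of all genes). Day 7 had 7 higher and 1 lower (25.6% and 24.8%), day 10 had 7 and 1 (23.5% and 26.9%), day 12 had 3 and 1 (21.7% and 25.6%) and day 14 had 2 and 6 (28.2% and 34.5%). On day 14 the median was -0.50. The list was chosen with earlier results of these data known. Il1b, a master cytokine of inflammation, rose from 11.9 to 762 CPM (log2FC 6.00, SE 0.21), and Il6 rose from 0.544 to 44.3 CPM (6.33, SE 0.35). Il17f, an inducer of defensins, rose from 0.09 to 5.37 CPM (5.82, SE 0.51) on day 3 and was no longer called on days 5 and 7. Il17a rose from 0.096 to 2.17 CPM. The smallest rises were those of Tgfa (0.94, SE 0.14) and the IL-36 family member Il1f8 (1.09, SE 0.18). The summed CPM of the list was 54.8-65.6 before the rise (day 0), 943-1090 at day 3, 639-775 at day 5, 256-319 at day 7, 117-137 at day 10, 59.5-67.6 at day 12 and 31.8-37.6 at the end (day 14). Il1b made up most of it on day 3, and the other 12 summed to 36.2-58.1 CPM on day 0, 224-245 at day 3, 139-172 at day 5 and 29.8-35.4 at day 14.

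The receptor list was near the background on day 3. Of 10 receptors, 4 rose and 3 fell, where 31.8% of all genes rose and 34.8% fell, and the median log2FC was 0.07, with Il1r1 at a log2FC of 2.07 and the receptor subunit Il17ra at 1.92, and with the IL-22 receptor Il22ra1 at -1.18 and the IL-17C receptor Il17re at -0.97. Of 11 regulators, 8 rose and 2 fell, with a median of 0.62. The adaptor gene Myd88 rose by 1.77 and the transcription factor gene Cebpb by 1.73 on the log2 scale, while Vdr, the vitamin D receptor, fell (-1.23, SE 0.098) and the IL-17 adaptor Traf3ip2 fell slightly (-0.28). Nfkbiz, which encodes the IL-17 responsive coactivator of Lcn2 and defensin genes, was at 28.3 CPM before the rise, at 74.8 and 80.6 CPM in the libraries of days 3 and 5, and at 24.8 CPM by day 7.

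Other antimicrobial genes did not move as a body. Of 26 listed, 22 were tested, and on day 3 there were 12 higher and 5 lower (all genes, 31.8% and 34.8%), with a median log2FC of 0.42. Ngp, which encodes a neutrophil granule protein, was at 0 in all day 0 libraries and at 64 to 114 counts on day 3. S100a8 and S100a9, the subunits of the metal-binding protein calprotectin, rose by 7.94 (SE 0.39) and 7.88 (SE 0.34), to 1270 and 2770 CPM. Retnla, a resistin-like antimicrobial protein, fell by 5.38 on the log2 scale (SE 0.26), from 354 to 8.49 CPM, and stayed lower on all 6 days. Hamp also fell (-2.59, adjusted p = 0.0246), at under 1 CPM. Camp, the cathelicidin, was higher on day 3 (2.58) and higher still against day 0 on day 14 (3.46, adjusted p = 1.48e-07), at 2.34 CPM. Of 18 further beta-defensins in the table only Defb8 passed the filter. It was counted 82 to 2252 times across the day 0 libraries and 61 to 637 times afterwards. Defb8 was called lower than day 0 on days 3, 7, 10, 12 and 14, and these calls rest on that wide day 0 spread. Without use of day 0, it was higher on day 5 than on day 3 (log2FC 2.22) and lower on day 7 than on day 5 (-2.22).

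Of 10 genes for partners and targets of these proteins, 5 rose and 3 fell on day 3 (all genes, 31.8% and 34.8%). Trem1, an amplifier of myeloid inflammation that Pglyrp1 can engage, rose from 0.509 to 141 CPM (log2FC 8.13, SE 0.31), and Tlr2, a sensor of bacterial lipoproteins, rose by 2.08 on the log2 scale (SE 0.11). Mmp9, which Lcn2 protein binds and protects, rose from 41.4 to 146 CPM. Elane, the elastase that Slpi inhibits, fell on day 3 (0.434 to 0.068 CPM, log2FC -2.62), as did Ccr6, a chemokine receptor that some beta-defensins engage (1.62 to 0.771 CPM, log2FC -1.07), and Slc22a17, a receptor for Lcn2, fell from 7.54 to 4.16 CPM.

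Markers of other cells also changed over these days. Of 10 neutrophil markers, all but Mpo rose on days 3, 5 and 7, and all but Cd177 were higher on day 10, against 31.8%, 29%, 25.6% and 23.5% of all genes. The summed CPM of all 10 was 17-44.7 (day 0), 4420-5580 (day 3), 1630-2040 (day 5), 548-964 (day 7), 226-250 (day 10), 21.3-24.3 (day 12) and 15.4-18.6 (day 14). On day 3 most of it was S100a8 and S100a9, which are also among the other antimicrobial genes above, and the remaining 8 markers summed to 9.14-20.4 CPM before the rise (day 0), 713-778 CPM at day 3 and 2.92-4.62 CPM at day 14. Of the defining genes, Ly6g was at 0 in all day 0 libraries and at 339 to 399 counts on day 3, and the granule enzyme gene Mpo was at 0.198 CPM on day 3 and not called, while the smallest rise on that day was that of Cd177 (4.99). All 6 macrophage markers rose on day 3, when 31.8% of all genes rose and 34.8% fell, to a sum of 2200-2320 CPM from 873-1380, with Cd68 (1.66) and Mrc1 (1.07) highest and Cd163 (0.59) and C1qa (0.62) lowest, and the sum was 287-321 CPM on day 14. Of 5 wound edge keratinocyte markers, 4 rose on day 3, including Krt6b (8.38 to 721 CPM, log2FC 6.43) and Sprr1b (5.78) and, with the smallest rise, Krt6a (3.33), and Krt17 was not called. Their sum was 471-714 CPM (day 0), 2590-3140 (day 3), 1800-2240 (day 5), 1480-1850 (day 7), 1340-1510 (day 10), 906-1020 (day 12) and 1490-1800 (day 14). The day 14 sum was mostly Krt17 (1400 CPM). The 4 markers that rose on day 3 had lower means on day 14 than on day 7 (Krt6b 9.34 and 405 CPM, Krt16 25.9 and 350, Sprr1b 6.22 and 101, Krt6a 159 and 468). Of 5 basal keratinocyte markers, 4 fell on day 3, led by Col17a1 (-1.51) and Trp63 (-1.02), with Itgb4 at -0.63 and Krt14, at 0.36, not called. The 5 hair follicle keratin genes all fell on day 3 (against 34.8% of all genes), from Krt28 (-5.79) and Krt35 (-6.19) to Krt71 (-6.69) and Krt27 (-6.90). All were higher than day 0 on days 12 and 14 (against 21.7% and 28.2% of all genes). Their day 0 sum ranged widely, from 202 to 1400 CPM. Of 4 adipocyte markers, Lep (-1.25) and Adipoq (-0.19) fell on day 3, and Cidec (-0.11) and Plin1 (0.00) were not called. The part of neutrophils, macrophages and wound edge keratinocytes in the rise of Lcn2, Slpi, Pglyrp1, Reg3g, Defb3, Defb4 and Defb14 was not tested.

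**Figure D5:**
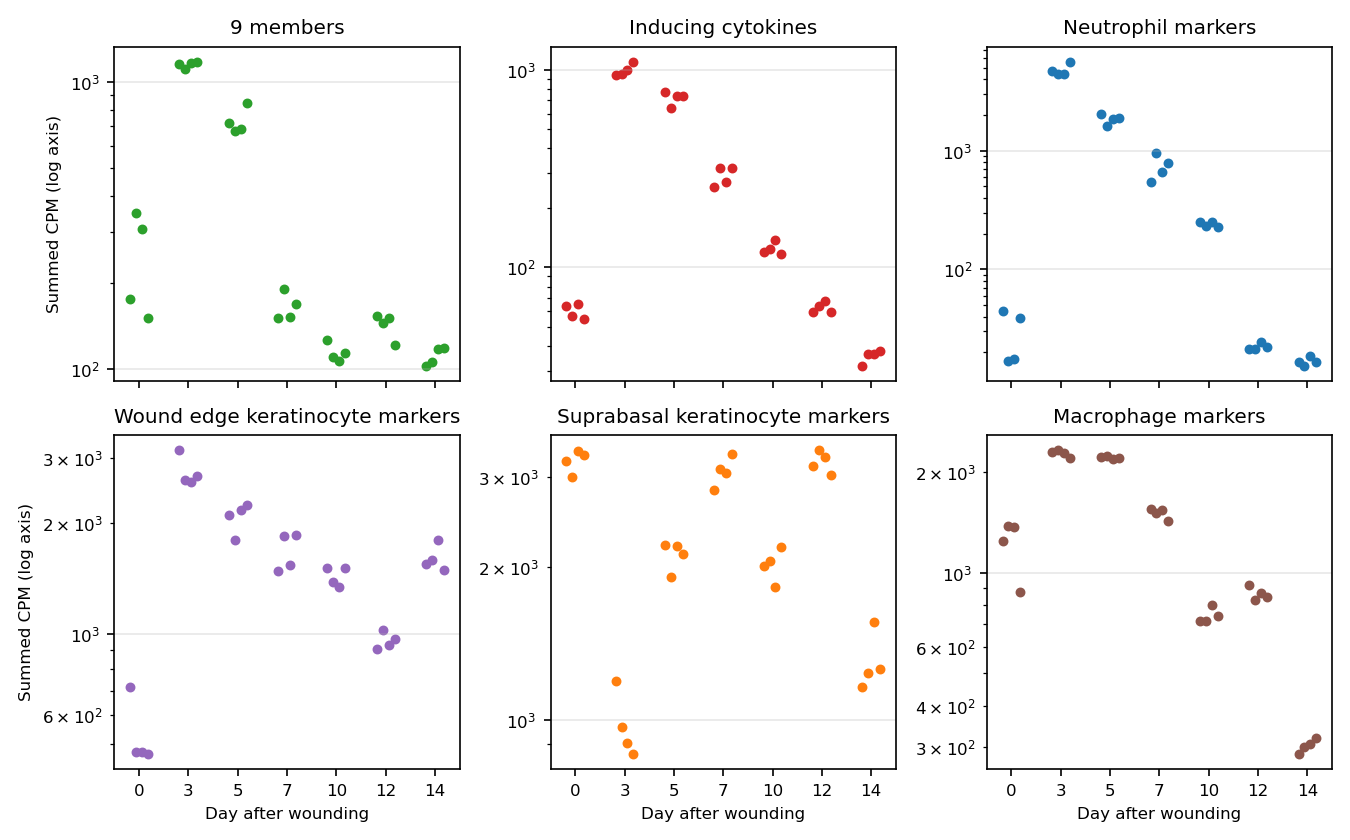
Summed CPM (y axis, log scale) of the 9 genes and of 5 lists in each library, by day (x axis). Each point is 1 library. Neutrophil markers rise from at most 44.7 on day 0 to at least 4420 on day 3 and are at or under 18.6 on day 14, and the cytokine list is highest on day 3 as well, under the neutrophil sums on days 3 to 10 and above them on days 0, 12 and 14.

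By the correlation of log2 CPM over the 28 libraries, which share the 7 days and are described without a test, the genes most like Lcn2 among 15528 were Slc16a1 (r = 0.985), Sod3 (0.984) and Bcl3 (0.983). Slpi was most like Tes (0.99), Sema7a (0.989) and Loxl3 (0.986), and Pglyrp1 most like Rab7 (0.972), Relb (0.971) and Rab32 (0.971). Reg3g was most like Plod2, Rbp2 and Inhba (0.943 to 0.945). Defb3 was most like Dram1 (0.95), Acat3 (0.94) and the neutrophil gene Ly6g (0.938), Defb4 most like Chid1 (0.914), and Defb14 most like Stfa1 (0.951). For Defb6 the leading genes were Ephx3 (0.928), Stard5 (0.923) and Gpld1 (0.907), and for Defb1 Ceacam19 (0.853). Among the members themselves, r was 0.94 for Lcn2 and Pglyrp1, 0.92 for Slpi and Reg3g and 0.91 for Lcn2 and Slpi. Defb6 was negatively related to all of them except Defb1 (0.58), down to -0.84 with Reg3g.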

How the data were processed

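Total RNA of mouse skin was extracted with TRIzol, and 28 libraries were made with a VAHTS Universal V6 kit. Raw counts for 29068 gene symbols were deposited by the authors, with FPKM values that equal count / (gene length × library total) for all 27118 genes checked (relative tolerance 0.001). The submitters' processing notes name fastp, R 3.2.0 and build mm10, and the aligner, counter, annotation and strandedness are not given in the sources used here, so overlapping genes and paralogs may share reads. Every column was mapped to a sample by its title.

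Counts were tested with edgeR 4.0.16 in R 4.3.3 (TMM, filterByExpr by day, glmQLFit, two-sided glmQLFTest). The 28 libraries entered 1 fit with 21 residual degrees of freedom. Within each comparison, p-values of the 18107 genes tested were adjusted by the Benjamini-Hochberg method, and no adjustment spans these comparisons. DESeq2 1.42.0 and limma 3.58.1 were alternatives. Log2 CPM used a prior count of 2, and floors of 3 counts cover counting error only. Depth was 36706513 to 40655764 counts (median 39499595). No 2 libraries of a day agreed within sampling noise. The scripts were tested on simulated counts. The IL-36 genes were matched by the table's older symbols Il1f6, Il1f8 and Il1f9 through RefSeq synonyms.

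The 9 members and all lists were chosen with earlier results of these data known. From each list, the 2 highest and 2 lowest log2FC on day 3 were named, and for each member the 3 genes of highest correlation among those with a mean of at least 1 CPM on some day. The rule also allowed any neutrophil or wound edge gene. Other list genes named with values (Il17a, Il17f, Mmp9, Slc22a17, Nfkbiz, S100a9, Camp and Defb8) and the pairs for ratios were picked after values were seen.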

Additional observations from a re-analysis of the deposited data

Results flagged for a closer look

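In 3 of 63 groups of 4 libraries (9 genes, 7 days), 1 library lay apart from the other three by Dixon's criterion at 95%, where chance gives about 3.2. Defb4 on day 3 was 0.14 log2 CPM in replicate 4, against 0.6 to 0.62 in the others. Lcn2 on day 12 was 2.38 log2 CPM in replicate 1, against 1.82 to 1.88. Slpi on day 12 was 0.91 log2 CPM in replicate 3, against 1.44 to 1.46. None of the 3 libraries was apart in more than 1 of the 9 genes.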

How the results depend on the processing

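Of 54 results (9 genes on 6 days against day 0), all kept their direction and call with DESeq2, with DESeq2's size factors in edgeR, without a filter on low counts and with Xist as a covariate, although Xist itself was only 0 to 0.294 CPM in every library. The number of members changed against day 0 under the study's own limits was 1 on day 12 (4 by adjusted p) and 1 on day 14 (5), and edgeR on only the 8 libraries of the comparison gave 3 on day 14. That smaller fit tested 43 of the 54, since Defb3 on days 7 to 14, Defb4 on days 5 to 14 and Reg3g on days 12 and 14 did not pass its filter on low counts. Of those tested, Defb1 lost its calls on days 5 and 14 (adjusted p of 0.0877 and 0.0569), and the day 14 drop to 3 is Defb1 and the untested Reg3g. With the replicate number as a block, Defb3 on day 7 was 1.63 (adjusted p = 0.0504), the one call lost. The numbers did not pair the libraries: 1 of 84 same-numbered pairs correlated above 0.1, and 8 of 28 libraries correlated best with their own number. Slpi on day 12 was called without composition normalization (0.42, adjusted p = 0.0301) and with limma on log2(FPKM + 1) or log2(FPKM + 0.1) (0.28 and 0.41), as was Defb14 on day 12 with limma and 0.1 (0.47), and Reg3g on day 14 was not called with limma and 1 (0.18, adjusted p = 0.229). The causes were not tested.

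With each library left out in turn, Defb4 ran from -1.21 to 0.32 on day 12 and from -0.28 to 1.33 on day 14, neither called, and changed sign. Its called values on days 3, 5, 7 and 10 became 6.03, 3.70, 3.35 and 3.14 without day 0 replicate 2, and those of Defb3 became 7.35, 3.53, 2.30 and 2.39 without day 0 replicate 3, all still called. Defb3 on day 7 lost its call without day 0 replicate 1 or 2 (1.22, 1.21) or day 7 replicate 2 or 4, and on day 10 without day 0 replicate 1 or 2 (1.32, 1.30) or day 10 replicate 1 or 3. Defb4 lost it on day 7 without day 7 replicate 1 (1.79) and on day 10 without day 0 replicate 1 or 3 or day 10 replicate 1 or 4. Defb1 on day 5 lost it without day 0 replicate 2 or 3 (-0.34, -0.32), and gained calls without day 0 replicate 4 on days 3, 7 and 12 and without day 7 replicate 2 on day 7. Lcn2, Slpi, Defb6, Defb14, Pglyrp1 and Reg3g kept every call.

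The pairs of day 0 libraries were examined after seeing the data. With replicates 1 and 4 alone, Defb1 reversed to 0.23, 0.008, 0.17 and 0.23 on days 3, 5, 7 and 12, and with replicates 2 and 3 alone Defb4 on day 14 reversed to -0.074. The counts of members changed stayed between 3 and 9. The counts of Defb3, Defb4 and Reg3g limit what can be said of days 7 to 14.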

Other observations

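The study's methods describe mice of both sexes, and Xist was at most 0.294 CPM in each of the 28 libraries.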
